A study of Mus musculus with 6 samples.

Results

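The ELAVL (Hu) family of RNA-binding proteins was followed over 6 oligonucleotide arrays of mouse hippocampus. Its members were chosen by the gene symbol of the platform annotation, which gave 4 probe sets, 1 each for Elavl1 (94001_at), Elavl2 (92317_at), Elavl3 (92239_at) and Elavl4 (92361_at), of the 8251 genes and 12488 probe sets on the array. All 4 gave signals above the array median in all 6 samples. The series concerns mice that overexpress HuD, the protein encoded by Elavl4, but no label says which sample, if any, came from an overexpressing animal and which from a control. The labels state no genotype, strain, age, transgene promoter or pooling of animals, so the 6 samples were left without groups and are named by the numbers in their titles. The title of sample 2 carries a code of 2 where the remaining titles have 1, and what this code stands for is unexplained. No mean with SD and no test could therefore be given. Which samples, if any, are replicates of each other is unknown, so values could not be checked against a replicate.

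ELAVL proteins bind AU-rich and U-rich stretches of mRNAs through RNA-recognition motifs and are best known for stabilising those mRNAs and promoting their translation. Elavl1 encodes HuR, which is found in nearly all cell types and moves between nucleus and cytoplasm. Elavl2, Elavl3 and Elavl4 encode HuB, HuC and HuD, which are made mainly in neurons, also regulate alternative splicing there, and serve as markers of neuronal commitment. HuD is known in particular for stabilising the mRNA of Gap43, the growth-associated protein of axons.

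The arrays were much alike in scale, with medians of the deposited intensity, controls left out, from 59.9 in sample 3 to 63.3 in sample 4. Each array was divided by that median, so a log2 level of 0 is the array median and a log2 level of 1 is 2 times it. The range of a probe set is its highest minus its lowest log2 level over the 6 samples. Of the 12 principal neuron markers of the hippocampus that were listed, 11 were measured by a probe set with 1 gene symbol, and 10 of these had a median above the array median, among them Neurod6, Wfs1, Zbtb20 and Gria1. Prox1, a transcription factor of dentate granule neurons, had a median below it. Ttr, transthyretin, which marks the choroid plexus, had its lowest signal, 20.5, in sample 1 and its highest, 1798, in sample 6, so the samples differed in at least 1 other tissue marker, and the part of this in the ELAVL signals was not tested. In whole tissue, fewer cells of a type and less RNA per cell cannot be told apart.

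Elavl4, which encodes HuD, differed most from sample to sample within the family. Its deposited signals in samples 1 to 6 were 84.6, 115.8, 96.2, 65.2, 82.5 and 110.4, in that order. Samples 2 and 6 were thus the high ones, sample 4 stood lowest, and samples 1 and 5 lay close together. On the scaled arrays the range was 0.87 (log2), so that the highest level was 1.83 times the lowest. The widest step between neighbours in this order was 1.27-fold, from sample 4 to sample 5. Sample 5 differed from sample 1 by 1.03-fold, sample 1 from sample 3 by 1.19-fold, sample 3 from sample 6 by 1.09-fold and sample 6 from sample 2 by 1.08-fold. The order of the 6 samples was the same in deposited intensities, after division by the array median and after quantile normalization.

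**Figure D1:**
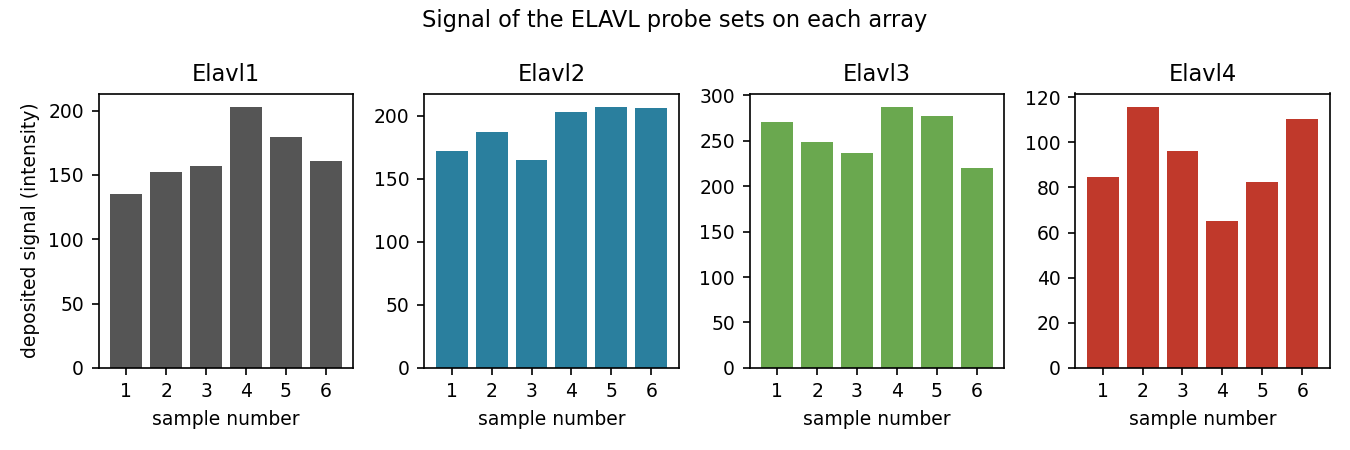
Deposited signal intensity (vertical axis, linear and starting at 0, with a scale of its own in each panel) of the 4 ELAVL probe sets in samples 1 to 6; each bar is 1 array. Elavl4 runs from 65.2 in sample 4 to 115.8 in sample 2, and Elavl1 is highest in sample 4, at 203.2.

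The Elavl4 range leaned more on sample 4 than on sample 2, though any range narrows when its end sample is left out. Without sample 4 it was 0.53 on the log2 scale (1.44-fold), and without sample 2 it was 0.77. With samples 4 and 2 both set aside, the 4 middle samples spanned 1.34-fold. In sample 4 the log2 level of Elavl4 was 0.04, at the array median, and in sample 2 it was 0.92. Detection calls were not used here, so the lowest value is not shown to be above background. No source used here says whether the Elavl4 probe set reads a transgene transcript, and no genotype was read from its level.

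The range of Elavl4 lay in the upper part of the array without standing alone. Among the 5642 probe sets with 1 gene symbol and a median above the array median, 7.80% had a range at least as wide, and the median range was 0.41. Ranges also vary with level: among the 1083 probe sets that fell in the same bin as Elavl4 when all were cut into 10 equal bins of mean level, 15.1% ranged as widely. Of the 4 family members, 1 had a highest sample more than 1.5 times its lowest, beside 25.4% of those 5642 probe sets. That count sat at the edge of the threshold, because Elavl1 ranged 1.49-fold. In deposited intensities and after quantile normalization Elavl1 passed too (0.59 on the log2 scale in both), giving 2 of 4 beside 24.9% and 25.0% of expressed probe sets, and without sample 4 the count was 0 of 4 beside 20.9%.

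Elavl1, the ubiquitous HuR gene, was the second most variable member and ran to its maximum where Elavl4 was at its minimum. Its signals were 135.1, 152.5, 156.7, 203.2, 179.5 and 161.2 for samples 1 to 6. Sample 1 was lowest and samples 4 and 5 were highest, with samples 2, 3 and 6 close together between them. The range was 0.58 on the log2 scale (1.49-fold), which 26.4% of the expressed probe sets matched or exceeded. Without sample 1 it was 0.37. The extremes in samples 1 and 4 were the same under the 3 scalings, whereas samples 3 and 6 changed places.

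Elavl3, which encodes the neuronal HuC, had signals of 271.2, 248.4, 236.2, 287.7, 277.2 and 219.5 for samples 1 to 6. Sample 6 was lowest and samples 1, 4 and 5 were the upper ones. The range was 0.38 (1.30-fold), and 0.20 without sample 6. Of the expressed probe sets 56.5% ranged at least as widely, but only 41.4% of the 1083 in its own bin of mean level did. Its order over the samples was the same under the 3 scalings.

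Elavl2, which encodes HuB, varied least. Its signals were 171.7, 187.3, 164.5, 202.8, 207.3 and 206.1 for samples 1 to 6. Samples 4, 5 and 6 were high and near each other, with 1.00-fold between samples 5 and 6, and samples 1 and 3 were low. The range was 0.26 (1.20-fold), and 80.4% of the expressed probe sets ranged at least as widely. The lowest sample was sample 1 after division by the array median and sample 3 in deposited intensities and after quantile normalization, so the order of these samples is not settled. The highest was sample 5 in deposited intensities and sample 6 after quantile normalization.

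**Figure D2:**
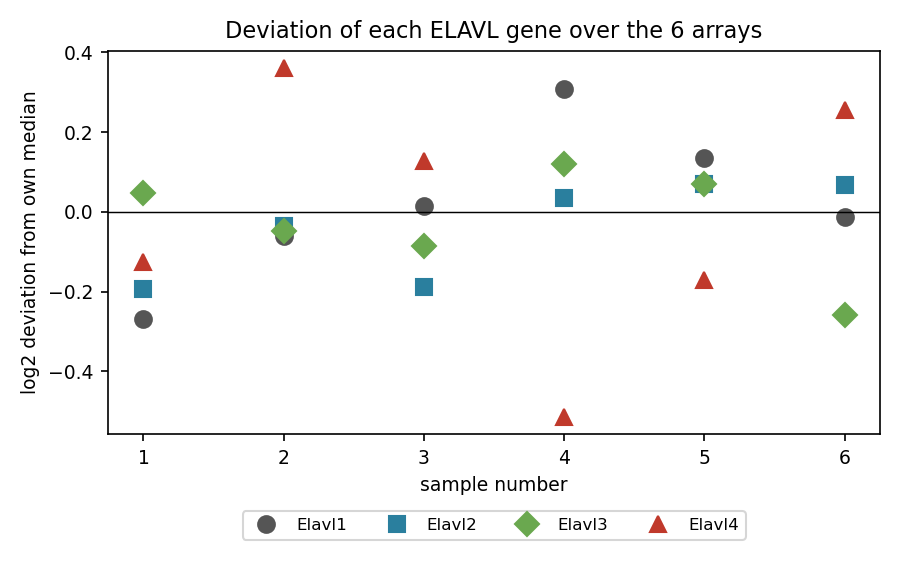
Log2 deviation of each ELAVL probe set from its own median over the 6 samples (vertical axis) by sample number (horizontal axis), after division by the array median; each point is 1 array. In sample 4 Elavl4 lies at -0.51 while Elavl1 lies at 0.31 and Elavl3 at 0.12.

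Ratios between members within an array do not change when an array is divided by a constant, though they can under quantile normalization. The ratio of Elavl1 to Elavl4 had its minimum in sample 2 and its maximum in sample 4, and its range was 1.24 on the log2 scale (2.37-fold). Its deviations from its own median were -0.01, -0.29, 0.01, 0.95, 0.43 and -0.14 for samples 1 to 6. Samples 4 and 5 thus stood above the rest. Of the other 5641 expressed probe sets, 4.43% had a ratio to Elavl1 that ranged at least as widely, and 10.9% had such a ratio to Elavl4. The ratio of Elavl3 to Elavl4 ranged by 1.15 and that of Elavl2 to Elavl4 by 0.94, and both were also highest in sample 4. Ratios to Elavl4 at least as wide were found for 17.1% and 41.9% of the other expressed probe sets, respectively. For ratios to Elavl3 and to Elavl2 these shares were 4.31% and 8.83%. After quantile normalization the ranges of the 3 ratios were 1.26 for Elavl1, 1.15 for Elavl3 and 0.97 for Elavl2, again with sample 4 highest. These 3 ratios share Elavl4 and are not separate observations.

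**Figure D3:**
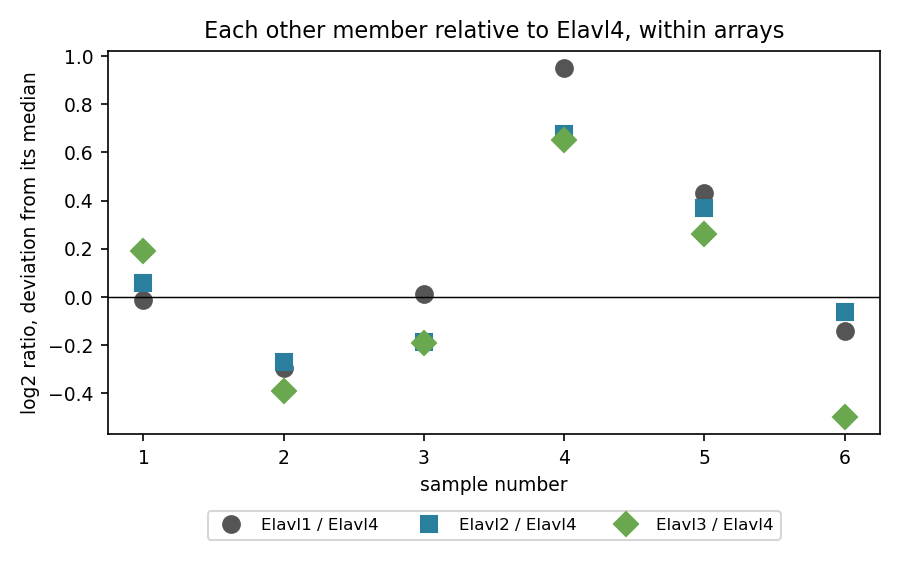
Log2 ratio of Elavl1, Elavl2 and Elavl3 to Elavl4 within each array, as the deviation from the ratio's own median (vertical axis), by sample number; each point is 1 array. The 3 ratios are highest in sample 4, at 0.95, 0.68 and 0.65.

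Among Elavl1, Elavl2 and Elavl3 the ratios moved less. The ratio of Elavl1 to Elavl2 ranged by 0.36 on the log2 scale, that of Elavl1 to Elavl3 by 0.56 and that of Elavl2 to Elavl3 by 0.57. Likeness of pattern was measured as the root mean square difference of the log2 deviations over the 6 samples, where 0 means an identical course. Within the family it was smallest for Elavl1 and Elavl2, at 0.15, and largest for Elavl1 and Elavl4, at 0.42. It was 0.40 for Elavl3 and Elavl4 and 0.33 for Elavl2 and Elavl4. Unequal amplitudes add to this measure, so the wide Elavl4 is far from most probe sets.

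By the same measure, over 6 samples and 1 probe set per gene, the closest courses were found outside the family. For Elavl4 they were Polr2m (0.07), Mbd3 (0.08), which encodes a subunit of the NuRD chromatin-remodelling complex, and Ctsz (0.09), a lysosomal cathepsin. Polr2m had signals of 664.4, 815.1, 678.7, 501.7, 650.5 and 807.4 in samples 1 to 6, with the same high samples 2 and 6 and the same low sample 4 as Elavl4. No other gene of the 4837 compared came within 0.1 of Elavl4. For Elavl1 the closest were Ankrd17 (0.04), Hps1 (0.05) and Chgb (0.06), with 36 genes within 0.1. For Elavl2 they were Mfn1 (0.02), a mitochondrial fusion GTPase, Lats2 (0.02), a kinase of the Hippo pathway, and Acot1 (0.03), with 174 within 0.1. For Elavl3 they were Parp2 (0.04), Sema7a (0.05) and Wars (0.06), with 94 within 0.1. A match over 6 arrays picked from 4837 genes is a description of these arrays.

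The mRNAs reported as bound by the neuronal ELAVL proteins did not share a common course with Elavl4. Of 19 on the list, 14 were measured and 10 had a median above the array median. Of these 10, 5 had a range over 1.5-fold, beside 23.7% of the 4838 expressed genes at 1 probe set per gene, and their median range was 0.59 beside 0.40. Such a share was not particular to this list, since 7 of 10 principal neuron genes, 5 of 7 oligodendrocyte genes, 4 of 7 astrocyte genes and 4 of 5 endothelial and mural genes also passed. The lists are not all separate, as Camk2a passed both here and among the principal neuron genes. The target count of 5 rests on the threshold, since Gap43 and Satb1 lay just above it (0.59 each) and Bdnf, Ache and Mapt just below it (0.58 each). The less bright probe sets of Mapt ranged by only 0.15 and 0.46. Without sample 3 or without sample 4 the count was 3, beside 19.5% and 20.9% of expressed probe sets. No member was highest in sample 2, where Elavl4 was highest, beside 15.6% of expressed genes. In sample 4, where Elavl4 was lowest, 3 of the 10 (Gap43, Ache and Marcks) were lowest, beside 20.7%, and 4 of the 10 (Bdnf, Mapt, Kcna1 and Nefm) were highest, beside 12.6%.

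Gap43, the best-known HuD target, had signals of 895.3, 867.0, 863.2, 607.1, 727.1 and 706.9 for samples 1 to 6. Samples 1, 2 and 3 were high and samples 4, 5 and 6 low, so sample 4 was lowest for both genes, while sample 6 was high for Elavl4 and low for Gap43. The name of the Gap43 probe set marks probes shared between sequences. Kcna1, a voltage-gated potassium channel, had signals of 428.9, 557.3, 239.1, 670.2, 629.6 and 597.7 in samples 1 to 6. Its range was 1.41 on the log2 scale, set by the low sample 3. Camk2a, the alpha subunit of the synaptic calcium/calmodulin-dependent kinase, was likewise lowest in sample 3, with a range of 1.81.

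Nefm, the medium neurofilament chain, was lowest in sample 2 at a signal of 116.8 and highest in sample 4 at 188.2, opposite to Elavl4 at both ends. Satb1, a chromatin organiser, was lowest in samples 2 and 6 by deposited signal (233.2 and 234.5), the samples where Elavl4 was highest, and lay between 321.3 and 348.6 in the other samples.

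**Figure D4:**
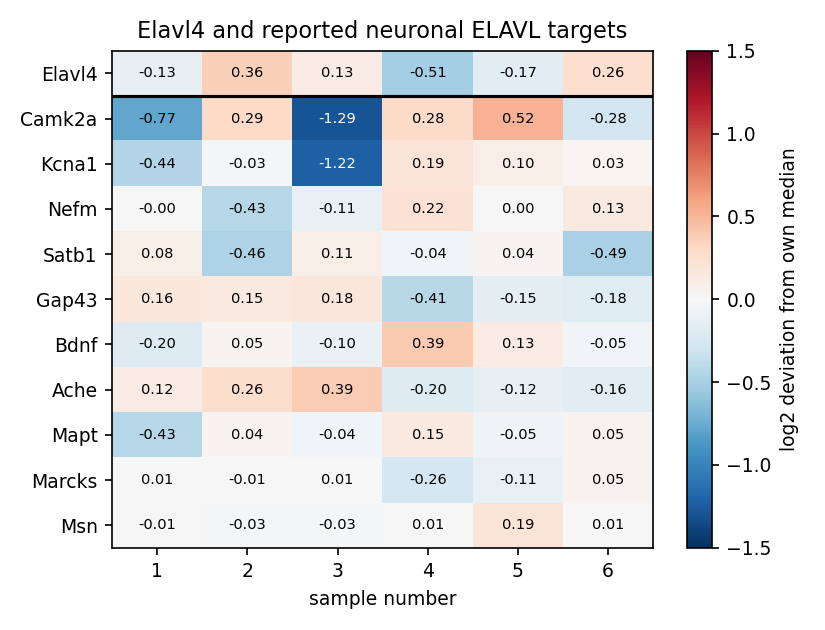
Log2 deviation from the own median (colour, with the value in each cell) of Elavl4 in the top line and, below it, of the 10 expressed genes among the reported neuronal ELAVL targets, by sample number, ordered by range. Camk2a and Kcna1 are lowest in sample 3, at -1.29 and -1.22, and Elavl4 is lowest in sample 4, at -0.51.

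For mRNAs reported as bound by HuR, 16 of 19 were measured and 10 were expressed. Of these, 5 ranged over 1.5-fold (23.7% of expressed genes), and the median range was 0.51. Fos, an immediate early gene, ranged most, between signals of 90.8 (sample 3) and 210.3 (sample 1), and Hif1a, the hypoxia-inducible factor subunit, ranged least, by 0.18 on the log2 scale. In deposited signals Hif1a was lowest in sample 3 (679.7), and after scaling in sample 1, while sample 6 (785.2) was highest in both. Without sample 5 or without sample 6 the count was 3, beside 21.5% and 22.3% of expressed probe sets. Without sample 6 the median range was 0.31. Elavl1 was lowest in sample 1, where 2 of the 10 were highest (17.3% of expressed genes) and 2 lowest (21.6%).

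Of 19 reported protein partners and regulators of ELAVL proteins, 18 were measured and 15 expressed. Among these 15, 1 ranged over 1.5-fold, beside 23.7% of expressed genes. The count depended on scaling, with 4 in deposited intensities and 3 after quantile normalization, and it was 0 without sample 4. The shares of expressed probe sets in those 3 settings were 24.9%, 25.0% and 20.9%. For the 15 genes the median range was 0.44, beside 0.40 for all expressed genes. The gene that passed was Prkca, a protein kinase C known to phosphorylate HuR, with signals of 150.4, 193.7, 139.6, 237.2, 210.1 and 161.9 in samples 1 to 6. Samples 4 and 5 were the highest for Prkca as they were for Elavl1. Carm1, an arginine methyltransferase that acts on HuR and HuD, had its low values in samples 2 and 4 (signals of 178.2 and 183.2) and a range of 0.50. Which of them was lowest changed with the scaling. Smn1, which encodes a HuD-binding protein lost in spinal muscular atrophy, ranged least, by 0.15.

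A further list held other mRNA-binding regulators, chiefly of AU-rich elements, most of which act against mRNA stability or translation. Of its 10 genes, 8 were measured and 7 expressed. After division by the array median 0 of the 7 ranged over 1.5-fold, beside 23.7% of expressed genes. In deposited intensities 1 of the 7 did, beside 24.9% of expressed probe sets. The median range of the 7 was 0.45, and 0.24 without sample 5. Celf1 ranged most (0.54), highest in sample 5, and Pum2, a Pumilio repressor, ranged least (0.15). The less bright of the 2 Celf1 probe sets ranged by 1.65. Hnrnpd, which encodes AUF1, ranged by 0.48 and Tia1 by 0.36.

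Because Elavl2, Elavl3 and Elavl4 are neuronal genes, pan-neuronal markers were set beside them. All 10 measured of 12 listed were expressed. The median log2 deviation of these markers was 0.04, 0.10, 0.11, -0.15, -0.04 and -0.09 for samples 1 to 6. Sample 4, lowest for Elavl4, was also lowest here, with 5 of the 10 markers at their minimum there (20.7% of expressed genes), and sample 6, high for Elavl4, was low here. Gap43, among these 5, is also on the neuronal target list. Snap25, a synaptic SNARE protein, ranged least, by 0.20 on the log2 scale, with deposited signals between 5180 (sample 4) and 5821 (sample 1) and its highest scaled level in sample 2, and Map2, the dendritic microtubule protein, ranged most, between 150.4 (sample 1) and 304.1 (sample 5). The part of neuronal content in the Elavl4 signal was not tested.

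Markers of other cells were set beside the family in the same way. The median log2 deviation of 7 oligodendrocyte genes was lowest in samples 1 (-0.28) and 2 (-0.20) and highest in sample 4 (0.18). Elavl1 likewise had its minimum in sample 1 and its maximum in sample 4, and the part of these cells in its signal was not tested. In this list Ugt8a ranged most (1.94-fold with a floor at the array median) and Mal least (0.40 on the log2 scale). That of 7 astrocyte genes ran from -0.09 (sample 1) to 0.14 (sample 3), with Fgfr3 the widest and Gja1 the narrowest (0.14). Fgfr3 had signals under the array median, and with a floor there it ranged 2.32-fold. The same median of 6 microglial genes lay between -0.05 and 0.05, and their ranges ran from Cx3cr1 (0.49) down to Csf1r (0.24). The less bright probe set of C1qb, also in this list, ranged by 1.08. The median of the 5 expressed endothelial and mural genes, of 8 measured, was highest in sample 2 (0.36), with Tagln the widest (1.78-fold with a floor at the array median) and Cldn5 the narrowest (0.48), and 4 of the 5 were highest there (15.6% of expressed genes). Acta2, among these 4, had its highest deposited signal in sample 1 (120.0, beside 117.7 in sample 2). Pecam1, Tek and Pdgfrb had medians below the array median, although Pecam1 reached a signal of 108.0 in sample 1. The 2 expressed choroid plexus genes, Ttr and Folr1, were lowest in sample 1, at signals under the array median that may not exceed background. With a floor at that median they ranged 28.6-fold and 2.58-fold. The median of the 10 expressed principal neuron markers was lowest in samples 1 (-0.35) and 3 (-0.39), and their ranges ran from Camk2a (1.81) to Calb1 (0.38). The markers were split in sample 3. Of the 10, 6 were lowest there (536 of 4838 expressed genes) and 3 were highest (1507 of 4838), among them Neurod6 (0.41). Elavl2 was also low in samples 1 and 3 (-0.19 in each), and the part of these neurons in the Elavl2 signal was not tested. Elavl4 was highest in sample 2 like the median of the 5 expressed endothelial and mural genes. In sample 6, next highest for Elavl4 (0.26), that median was 0.02. The part of endothelial and mural cells in the Elavl4 signal was not tested.

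Signal ratios between 3' and 5' control probe sets, which follow RNA integrity and labelling, did not single out sample 4. For beta-actin the ratio ran from 1.11 (sample 2) to 1.27 (sample 1), with 1.19 in sample 4. For Gapdh it ran from 0.79 (sample 2) to 0.86 (sample 1), with 0.80 in sample 5 and 0.81 in sample 4. Both of these controls have 2 probe sets at each end, and only the first of each was used. The ratio of pyruvate carboxylase was also lowest in sample 2 (1.57) and was highest in sample 3 (3.56). That of the transferrin receptor ran from 2.54 (sample 1) to 3.47 (sample 3). Sample 2, highest for Elavl4, thus had the lowest ratio for 3 of the 4 controls, and the part of this in the Elavl4 signal was not tested.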

How the data were processed

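Total RNA of 6 hippocampus samples was measured, 1 array each. The authors deposited 1 table of linear signal intensity for all probe sets; no source used here gives the summary method or software, and the equal trimmed means (150.1 between the 2nd and 98th percentile on each array) are what scaling to a common target gives. Gene symbols came from the platform annotation, and 10817 of 10833 single-symbol probe sets matched the RefSeq gene table (GRCm38.p6) by gene identifier; no coordinates are printed, since the genome build behind the array is not known here. Values were divided by the array median over non-control probe sets, floored at 0.2 of it and put on log2. Where a gene had several probe sets the brightest on average stood for it, and it was called expressed where its median lay above 0. The widest and narrowest members can depend on that choice. For example, less bright probe sets of Mbp (0.18) and Gria1 (0.375) ranged less than the members named narrowest. That of Tnpo1, a partner gene, ranged more (1.33) than Prkca. Log2 ranges of the less bright probe set were 1.65 for Celf1, 0.71 for Csf1r, 0.59 for Fgfr3, 0.31 for Folr1 and 0.33 for Gja1. Those of the brighter were 0.54, 0.24, 2.34, 2.83 and 0.14. The 2 were nearer for Camk2a (1.89 and 1.81), Fos (0.96 and 1.14) and Hif1a (0.10 and 0.18). Members and lists were chosen with earlier results of these data known.

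The text names the ELAVL genes, the 3 genes of closest course to each, neuronal targets ranging over 1.5-fold, the widest and narrowest expressed member of every other list and the control ratios; other genes were named after their values were seen. Each probe set's probes are not used here, so cross-reaction between family members was not examined. All samples lack a group, so there was no test; nothing in the labels says whether they are separate animals. The calculations (Python 3.11.15, pandas 2.3.3) were checked on simulated arrays. Alternatives were the scaling, the floor, the level filter, the mean of probe sets and leaving out each sample.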

Additional observations from a re-analysis of the deposited data

Results flagged for a closer look

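Of 40 genes named by rule, 2 had a sample whose gap to its nearest neighbour took an unusually large share of the range over the 6 samples. Chance gives about 1 in 20 for genes not picked by their values, a rate that does not apply here, since both genes were named for the widest range in their lists. Map2 in sample 1 stood below the others (gap 0.66 of the range), and Tagln in sample 2 stood above them (0.63). No ELAVL gene was so marked, the largest share being 0.46 for Elavl3 in sample 6.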

How the results depend on the processing

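Of 315 recomputed values, 277 stayed within the spread over samples (within 1.5 times for counts and shares) and 38 moved; ranges, counts and shares cannot change sign. No paired analysis was possible because no sample has a group. The ELAVL ranges moved only when a sample was left out, between 0.37 and 0.58 for Elavl1, 0.20 and 0.38 for Elavl3 and 0.53 and 0.87 for Elavl4. Counts of genes over 1.5-fold became, in deposited intensities, 4 partners, 1 other AU-rich binding gene and 1 neuronal marker, and after quantile normalization 3 partners and 1 neuronal marker. With the mean of probe sets the counts were 4 of 14 partners, 3 of 7 oligodendrocyte, 2 of 4 endothelial or mural and 1 of 1 choroid plexus genes. The share over all genes was not recomputed in that setting. With no level filter, where the share over all probe sets was 37.4%, the counts were 8 of 14 neuronal targets, 9 of 16 HuR targets, 3 of 18 partners, 1 of 8 other AU-rich binding genes, 1 of 8 microglial and 4 of 5 choroid plexus genes. The choroid plexus median range was 1.37 with a floor at the array median and 1.94 with no filter. Leaving out each sample gave counts of 3 to 5 of 10 for both target lists, 0 to 1 of 15 for partners and 1 to 2 of 10 for neurons. The counts were 1 of 6 to 4 of 7 for astrocytes, 3 to 5 of 7 for oligodendrocytes and 2 to 4 of 5 for endothelium and mural cells. Every choroid plexus gene above the level filter passed each time, and only their number changed, from 1 to 3. The share of expressed probe sets was 19.2% to 22.3% with a sample left out. Median ranges were then 0.31 to 0.51 for HuR targets, 0.24 to 0.45 for other AU-rich binding genes, 0.26 to 0.62 for astrocytes and 2.02 to 6.45 for choroid plexus. With 6 arrays, 1 probe set per member and no detection calls, measurement error is unknown.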
